A study of Homo sapiens with 3 samples.

Results

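The genes described here are 9 that are usual in leukocytes yet had reads in AB12, a mouse malignant mesothelioma cell line: Cd53, Ccr1, Ly6a, Ceacam1, Lilr4b, Mcpt1, Mcpt2, Mcpt8 and Lyz2. They were taken by symbol from a table of 13936 genes, and all 9 had a row. They were proposed because they were counted in a tumour line, with their levels and their differences between groups already known, so both are given here as descriptions. The study compared AB12 cells labelled shNF2, a short hairpin against Nf2, with AB12 cells labelled shSC, taken as the control hairpin. There were 2 shNF2 libraries, which carry the numbers 20 and 21 in the labels, and 1 shSC library. Neither the meaning of these numbers nor whether the libraries came from separate cultures is given in the labels, so any spread between them, and any p-value resting on it, may be technical. The column names also mark the shNF2 libraries as KD and the shSC library as WT. All were grown alike, in RPMI with serum, and cell age and clonality are not given in the labels.

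White blood cells are told from other cells by their surface proteins and by the contents of their granules. Cd53 is a tetraspanin of nearly all white blood cells, Ccr1 a chemokine receptor of monocytes and neutrophils, and Lilr4b a receptor of the gp49 type found on mast cells and macrophages. The Mcpt genes encode serine proteases stored in the granules of mast cells and basophils, and Lyz2 encodes the lysozyme of macrophages and neutrophils. Ly6a (Sca-1) and Ceacam1 are less strict: Ly6a also marks stem and progenitor cells and responds to interferon, and Ceacam1 is an adhesion molecule of epithelia as well as of leukocytes.

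Values are scaled counts, that is, reads per gene divided by 1 factor per library. Reads assigned to genes numbered 25837151 and 26829163 in shNF2 libraries 20 and 21, against 29532600 in shSC. Nf2, the targeted gene, had 486 and 458 scaled counts in shNF2 libraries 20 and 21, against 1539 in shSC. Although the samples are labelled as human, the gene identifiers are those of mouse. Of 9 mesothelial markers 5 had a row. Mesothelin (Msln) had 9722 and 8977 scaled counts in shNF2 libraries 20 and 21, against 7397 in shSC, and the keratin gene Krt18 had 20443 and 16561, against 23657. Wt1, Upk3b, Pdpn and Calb2 had no row in the values used here. Of these markers only the keratin gene Krt7 passed the test, higher in shNF2 by 2.19 ± 0.36 on the log2 scale (± SE, with adjusted p = 0.0119 in limma). The keratin genes Krt8 and Krt19 lay lower in both shNF2 libraries. Krt8 had 6476 and 5420 scaled counts in libraries 20 and 21, against 7683 in shSC, and Krt19 3016 and 2618, against 5113. Krt19 lay at -0.86 ± 0.21 on the log2 scale (± SE, adjusted p = 0.0996 in limma) and did not pass. The median log2 fold change of the 5 was -0.36.

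Of the 9 genes, 7 were lower in both shNF2 libraries than in shSC, as were 35.8% of the 12813 genes tested, and 2 were higher in both, as were 36.1%. Cd53, Ccr1, Ly6a, Ceacam1, Lilr4b, Mcpt1 and Mcpt2 were lower, and Mcpt8 and Lyz2 were higher. All 7 of the lower genes were at least 2-fold lower in both shNF2 libraries, as were 1.3% of all genes tested. In limma, a linear model whose variances are moderated over all genes, those 7 passed an adjusted p threshold of 0.05 as lower and the other 2 did not pass, where 0.843% of all genes tested passed in either direction and 0.429% as lower. With quantile normalization, and also in limma without a variance trend, 0 of the 9 passed, as did 0 of all 12813 genes tested. Because the genes were proposed with this contrast known, nothing is read from the number of them that passed. Their median log2 fold change was -2.64, beside -0.0043 over all genes tested. In RNA from whole cultures, fewer cells that express a gene and less of its RNA per cell cannot be told apart.

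**Figure D1:**
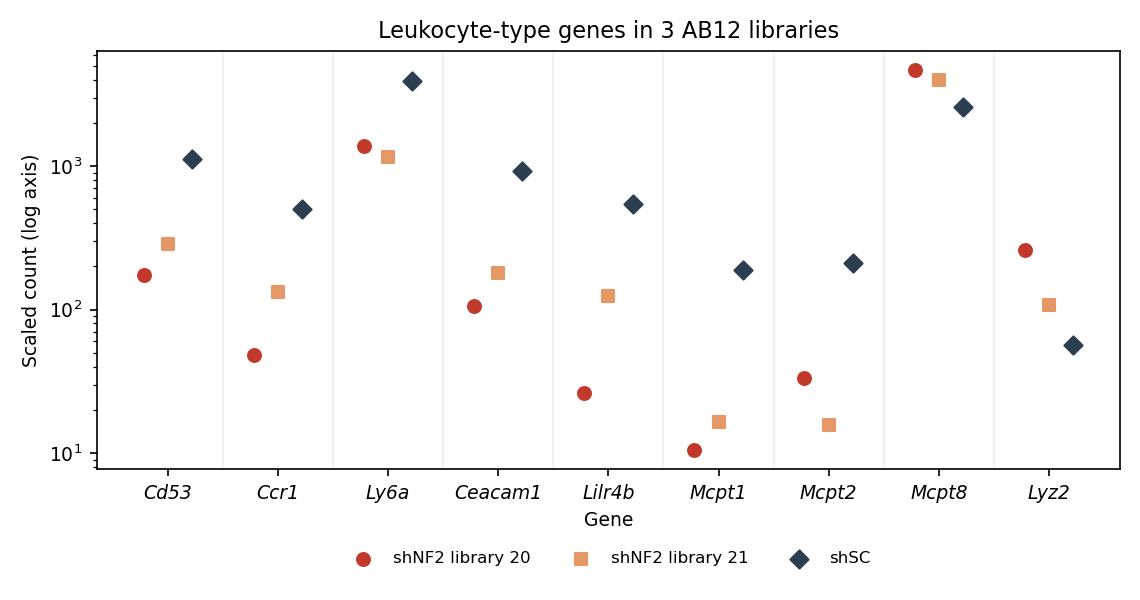
Scaled counts (log axis) of the 9 leukocyte-type genes in shNF2 library 20, shNF2 library 21 and shSC, 1 point per library. For 7 genes shSC lies above both shNF2 libraries, and for Mcpt8 and Lyz2 it lies below both.

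The surface receptors were all lower in shNF2. Cd53 had 174 and 286 scaled counts in shNF2 libraries 20 and 21, against 1125 in shSC. Both shNF2 libraries lay far below shSC, and library 20 was the lowest. Reads were 6.48-fold fewer in library 20 than in shSC (exact 95% counting interval 5.50 to 7.67) and 3.94-fold fewer in library 21 (3.46 to 4.49). The log2 fold change over both libraries was -2.33 ± 0.31 (SE, 2 shNF2 libraries and 1 shSC library). Ratios of reads were taken after scaling, and their intervals cover counting error only, not the spread between cultures.

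Ceacam1 followed Cd53 in the order of its libraries. It had 106 and 181 scaled counts in shNF2 libraries 20 and 21, against 923 in shSC, a log2 fold change of -2.73 ± 0.34 (SE). Library 20 was again the lowest and shSC stood apart from both. Relative to shSC the reads were 8.74-fold fewer in library 20 (7.11 to 10.8) and 5.11-fold fewer in library 21 (4.36 to 6.01).

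Ly6a was the gene among the lower 7 that differed least between the shNF2 libraries. It had 1379 and 1150 scaled counts in libraries 20 and 21, against 3949 in shSC, a log2 fold change of -1.65 ± 0.22 (SE). Here library 21, not library 20, was the lowest, and the reads were 2.86-fold fewer in library 20 (2.69 to 3.05) and 3.43-fold fewer in library 21 (3.22 to 3.67) than in shSC.

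Ccr1, a receptor that mouse macrophage inflammatory proteins bind, had 48.1 and 132 scaled counts in shNF2 libraries 20 and 21, against 503 in shSC. All 3 libraries were well separated, with library 20 far under library 21. The reads were 10.5-fold fewer in library 20 (7.73 to 14.5) and 3.81-fold fewer in library 21 (3.15 to 4.63) than in shSC, and the log2 fold change was -2.64 ± 0.47 (SE). Ccr1 did not pass under limma with robust moderation. It also did not pass with quantile normalization or without a variance trend, where 0 of all genes tested passed.

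Lilr4b showed the widest gap between the shNF2 libraries. It had 26.2 and 124 scaled counts in libraries 20 and 21, from 25 and 128 reads, against 543 scaled counts and 558 reads in shSC. The reads were 20.8-fold fewer in library 20 (13.9 to 32.4) but 4.37-fold fewer in library 21 (3.60 to 5.33) than in shSC. On the log2 scale it lay -4.33 from shSC in library 20 and -2.12 in library 21, and both together gave a fold change of -3.22 ± 0.63 (SE). Lilr4b did not pass with TMM scaling (factors from a trimmed mean over genes), robust moderation or DESeq2. Nor did it pass with quantile normalization or without a variance trend, where 0 of all genes tested passed.

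**Figure D2:**
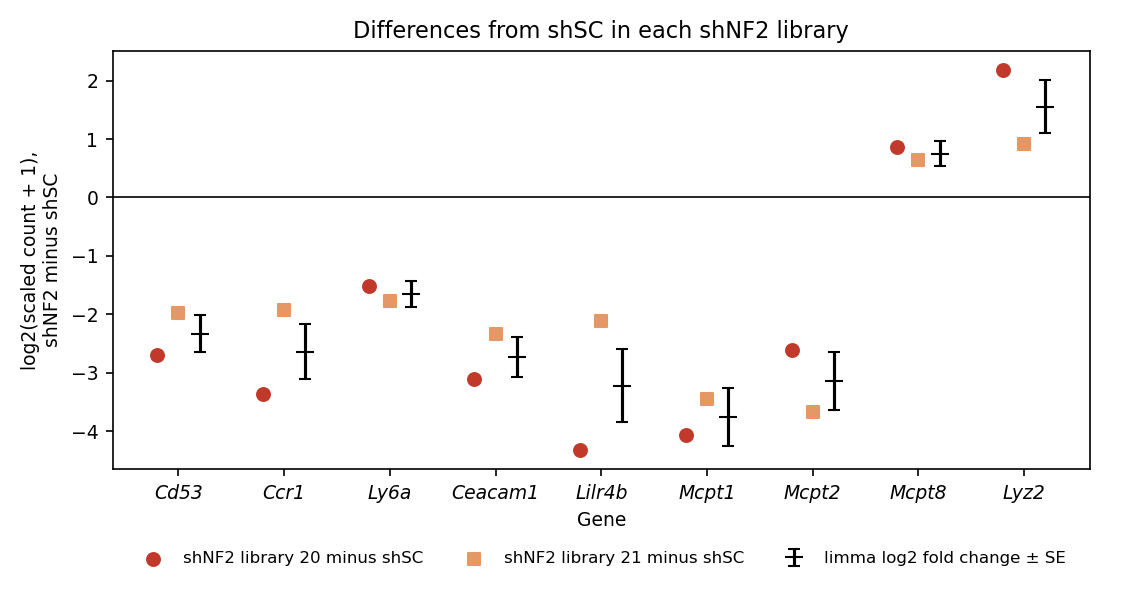
Difference in log2(scaled count + 1) from shSC for shNF2 library 20 (circles) and library 21 (squares), with the limma log2 fold change and its standard error (bars), for each of the 9 genes. Lilr4b has the widest gap, -4.33 against -2.12, and Mcpt8 the narrowest, 0.86 against 0.64.

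Among the granule proteases, the mast cell genes Mcpt1 and Mcpt2 were lower in shNF2 and the basophil gene Mcpt8 was higher. Mcpt1, a chymase of mucosal mast cells, had 10.5 and 16.5 scaled counts in shNF2 libraries 20 and 21, from 10 and 17 reads, against 190 scaled counts and 195 reads in shSC. Mcpt2, its close relative, had 33.5 and 15.6 scaled counts in libraries 20 and 21, from 32 and 16 reads, against 210 scaled counts and 216 reads in shSC. Both genes were near the low end of what was tested in shNF2 (a mean of at least 10 scaled counts) and clearly above it in shSC. Log2 fold changes were -3.75 ± 0.50 for Mcpt1 and -3.15 ± 0.50 for Mcpt2 (SE). The reads of Mcpt1 were 18.2-fold fewer in library 20 (9.66 to 38.4) and 11.5-fold fewer in library 21 (6.99 to 20.1) than in shSC. For Mcpt2 they were 6.28-fold fewer in library 20 (4.32 to 9.42) and 13.5-fold fewer in library 21 (8.14 to 24.1).

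Mcpt8 had 4704 and 4014 scaled counts in shNF2 libraries 20 and 21, against 2583 in shSC. It thus went the other way from Mcpt1 and Mcpt2, and its shNF2 libraries lay close together. The reads were 1.82-fold as many in library 20 (1.74 to 1.91) and 1.55-fold as many in library 21 (1.48 to 1.63) as in shSC. The log2 fold change was 0.75 ± 0.21 (SE), which did not pass over all genes tested. No direct test between Mcpt8 and the other proteases was made.

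Lyz2, the remaining gene that was higher, had 260 and 108 scaled counts in shNF2 libraries 20 and 21, against 56.5 in shSC. Library 20 held more than library 21, and both were above shSC. The reads were 4.61-fold as many in library 20 (3.45 to 6.25) and 1.91-fold as many in library 21 (1.38 to 2.67) as in shSC, with a log2 fold change of 1.55 ± 0.46 (SE). Lyz2 did not pass over all genes tested, and passed only when no filter on low values was used.

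**Figure D3:**
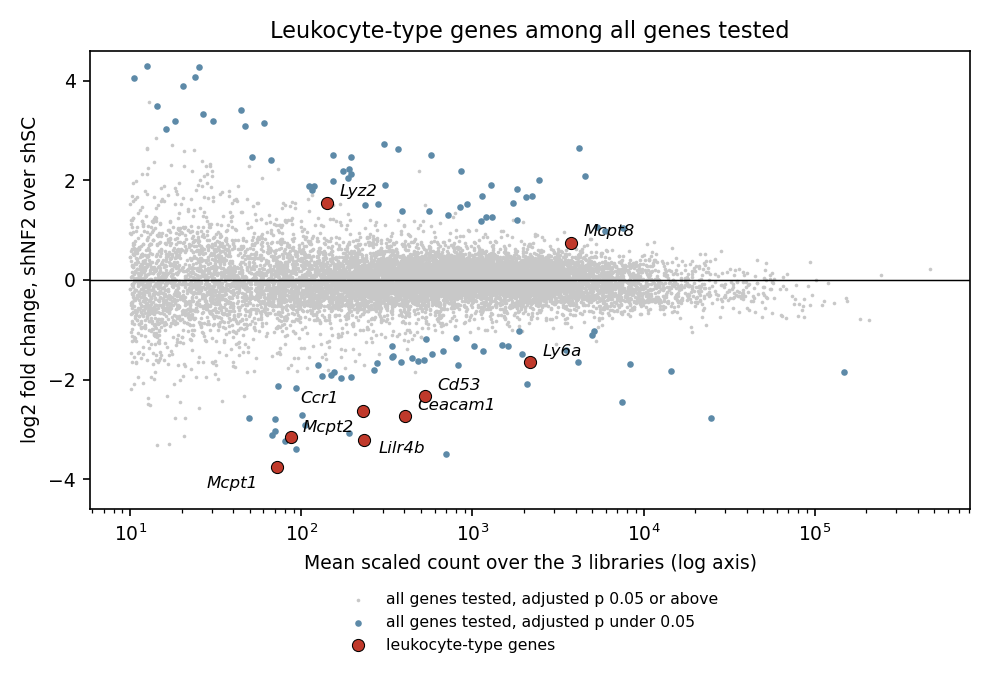
Log2 fold change of shNF2 over shSC against the mean scaled count over the 3 libraries (log axis) for all 12813 genes tested, with the 9 leukocyte-type genes in red and other genes with an adjusted p under 0.05 in blue. The 7 lower genes lie between -3.75 and -1.65, against a median absolute log2 fold change of 0.23 over all genes tested, and Lyz2 and Mcpt8 lie at 1.55 and 0.75.

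The 2 shNF2 libraries were also set against each other for each gene. The counting interval of the ratio of library 20 to library 21 left out 1 for 8 of the 9. The exception was Mcpt1 at 0.633 (0.259 to 1.46). How many of all genes tested leave out 1 was not computed, so this count has no background and is not read as a trait of these genes. Genes with many reads can leave out 1 at a small difference. Mcpt8 did so with 4704 and 4014 scaled counts in libraries 20 and 21, which lay close together. Cd53, Ccr1, Ceacam1, Lilr4b and Mcpt1 were lower in library 20 than in library 21, and Ly6a, Mcpt2, Mcpt8 and Lyz2 were higher in library 20. Differences of at least 2-fold on the log2 scale were found for 4 of the 9 (Lilr4b, Ccr1, Lyz2 and Mcpt2), where 3.83% of all genes tested differed as much. That share was not matched on level. For Mcpt2 the difference rests on 32 and 16 reads in libraries 20 and 21 (ratio 2.15, 1.15 to 4.20), and for Lilr4b on 25 and 128. The ratio of library 20 to library 21 was lowest for Lilr4b at 0.210 (0.131 to 0.325) and highest for Lyz2 at 2.41 (1.92 to 3.05). The labels give 1 library of each number, so this difference has no replicate check.

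Related gene copies may share reads with Lilr4b, Mcpt1 and Mcpt2, though how alike the copies are was not measured here. The table sets aside reads whose alignment was not unique in a row of its own, which held 36.5% and 35.5% of all reads in shNF2 libraries 20 and 21, against 37.5% in shSC. How many of these belong to the genes described here is not known from the table, and reads of stretches shared between copies may be missing from their counts or may have been counted for the wrong copy.

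Lilrb4a, the inhibitory gp49 receptor gene and closest relative of Lilr4b, had 3.14 and 28.2 scaled counts in shNF2 libraries 20 and 21, against 37.0 in shSC. Lilr4b held 89.3% of the reads of the pair in library 20 (25 of 28 reads, exact 95% interval 71.8% to 97.7%), 81.5% in library 21 (128 of 157 reads, 74.6% to 87.3%) and 93.6% in shSC (558 of 596 reads, 91.4% to 95.4%). The interval of library 21 lay below that of shSC, whereas that of library 20 overlapped both. With both genes summed into 1 value the log2 fold change was -3.09 ± 0.65 (SE), against -3.22 for Lilr4b alone. Lilrb4a on its own lay at -1.79 ± 0.90 on the log2 scale (± SE, adjusted p = 0.586 in limma) and did not pass. Of the other 11 Lilr and Pir names searched, 0 had a row in the values used here.

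Mcpt1 and Mcpt2 divided their reads unevenly across libraries. Mcpt1 held 23.8% of the reads of the pair in shNF2 library 20 (10 of 42 reads, exact 95% interval 12.1% to 39.5%), 51.5% in library 21 (17 of 33 reads, 33.5% to 69.2%) and 47.4% in shSC (195 of 411 reads, 42.5% to 52.4%). The share in library 20 lay below that in shSC, and that in library 21 was within its counting error. Summed, the pair had 43.9 and 32.1 scaled counts in shNF2 libraries 20 and 21, against 400.2 in shSC, a log2 fold change of -3.38 ± 0.39 (SE). A mixing of reads between Mcpt1 and Mcpt2 leaves this sum as it is. Their relative Cma1 had 8.37 and 8.75 scaled counts in shNF2, against 2.92 in shSC, and was too low to be tested. Mcpt4, Mcpt9, Cma2, Ctsg and Mcpt-ps1 had no row.

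**Figure D4:**
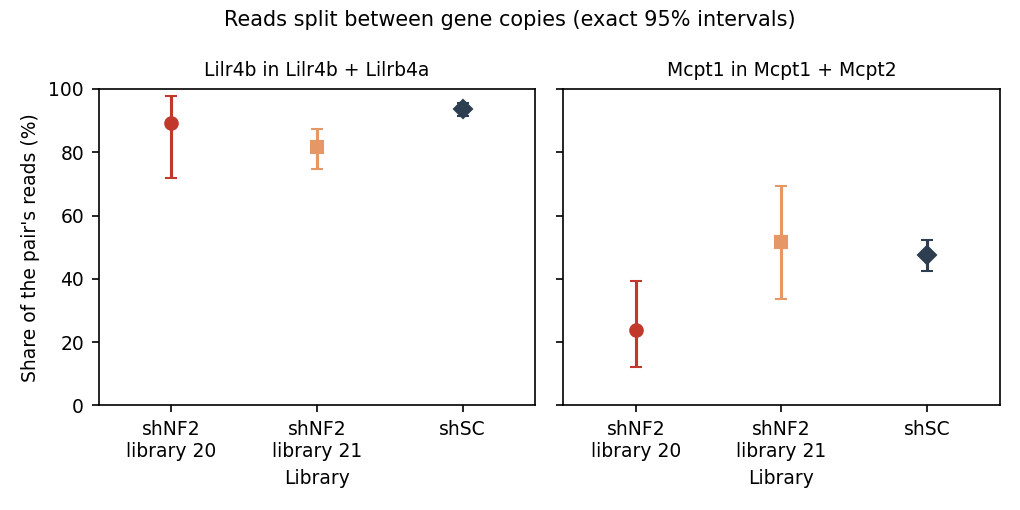
Share of the reads of a gene pair that was assigned to Lilr4b (left, of Lilr4b and Lilrb4a) and to Mcpt1 (right, of Mcpt1 and Mcpt2) in each library, in percent, with exact 95% binomial intervals that cover counting error only. Lilr4b holds between 81.5% and 93.6%, and Mcpt1 between 23.8% and 51.5%.

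Granzymes, the related proteases of cytotoxic lymphocytes, were also searched, since in mice several of them lie in one gene cluster with the Mcpt genes. Of 9 granzyme genes 3 had a row and 0 passed. Gzme had 227 and 427 scaled counts in shNF2 libraries 20 and 21, against 270 in shSC (log2 fold change 0.21 ± 0.35, SE). The shNF2 values of Gzme lay on both sides of shSC, unlike those of Mcpt1, Mcpt2 and Mcpt8. Gzmk had 50.2 and 41.8, against 52.6, and Gzmm 18.8 and 17.5, against 15.6.

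Other markers of white blood cells were mostly missing. Of 77 leukocyte markers outside the 9 genes, 19 had a row and 13 were tested. None passed (limma; 3 had an unadjusted p under 0.05, and edgeR and DESeq2 called 0), where 0.843% of all genes tested passed. An unadjusted p under 0.05 was thus found for 23.1% of the markers tested, against 9.27% of all genes tested. The 3 were Arhgdib, higher in shNF2, and Cd14 and Ltf, lower. The marker lists were chosen with earlier results of these data known, so nothing is read from this share. The median log2 fold change of the 13 markers tested was 0.11. The pan-leukocyte genes Ptprc, which encodes CD45, Cd52 and Laptm5 had no row, nor did the macrophage genes Csf1r, Adgre1, Fcer1g, Tyrobp and Spi1. The table holds only genes above some minimum (the lowest total over the libraries was 15 reads), so a missing row is not a count of 0.

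Of 16 pan-leukocyte markers 6 had a row, with summed levels of 1282 and 1275 scaled counts in shNF2 libraries 20 and 21, against 1049 in shSC. Most of this was Itgb2, the shared beta chain of leukocyte integrins, with 970 and 987 in shNF2, against 832 in shSC. Ptpn6, a phosphatase of blood cells, had 211 and 193 in shNF2, against 162 in shSC. Arhgdib had 75.3 and 68.0 in shNF2, against 30.2 in shSC, the widest difference of the 4 tested (limma unadjusted p = 0.0119, adjusted p = 0.308). Unlike Cd53, these 3 genes lay above shSC in both shNF2 libraries, and 0 of the 4 tested passed. Coro1a, Lcp1 and Rac2 stayed under 15 scaled counts in every library.

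Of 18 macrophage and monocyte markers other than Lyz2, 4 had a row and 0 passed, and their summed level was 8328 and 7983 scaled counts in shNF2 libraries 20 and 21, against 9299.5 in shSC. Mrc1, the mannose receptor, had 5617 and 6215 in shNF2, against 5940 in shSC (log2 fold change -0.01 ± 0.21, SE). Cd14, a receptor for bacterial lipopolysaccharide, had 2576 and 1659 in shNF2, against 3222 in shSC (-0.64 ± 0.26, SE). Cd68, a lysosomal protein gene of macrophages, had 105 and 87.5 in shNF2, against 88.6 in shSC, and Mpeg1 29.3 and 21.4, against 48.7. The shNF2 libraries of Mrc1 and Cd68 lay on both sides of shSC and those of Cd14 and Mpeg1 below it, whereas those of Lyz2 lay above it.

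Markers of the remaining lineages were at or near the minimum of the table, apart from Ltf and Pax5. Of 12 mast cell and basophil markers 3 had a row (Gata2, Hdc and Cma1), with summed levels of 32.4 and 33.0 scaled counts in shNF2 libraries 20 and 21, against 19.5 in shSC. The defining mast cell genes Kit, Fcer1a, Ms4a2, Cpa3, Tpsb2 and Tpsab1 had no row, while Mcpt8 had between 2583 and 4704. Of 12 neutrophil markers 4 had a row (Ltf, Ly6g, S100a8 and Cxcr2) and 0 passed, with sums of 215 and 70.0 in shNF2, against 251 in shSC. Lactotransferrin (Ltf) had 171 and 32.1 in shNF2, against 210 in shSC. Of 13 T and NK cell markers only Lck had a row, at 10.5 and 8.75 in shNF2, against 6.82 in shSC. Of 6 B cell markers only Pax5 had a row, at 219 and 304 in shNF2, against 208 in shSC (log2 fold change 0.31 ± 0.31, SE). Whether a few leukocytes in the cultures contribute to the 9 genes was not tested.

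**Figure D5:**
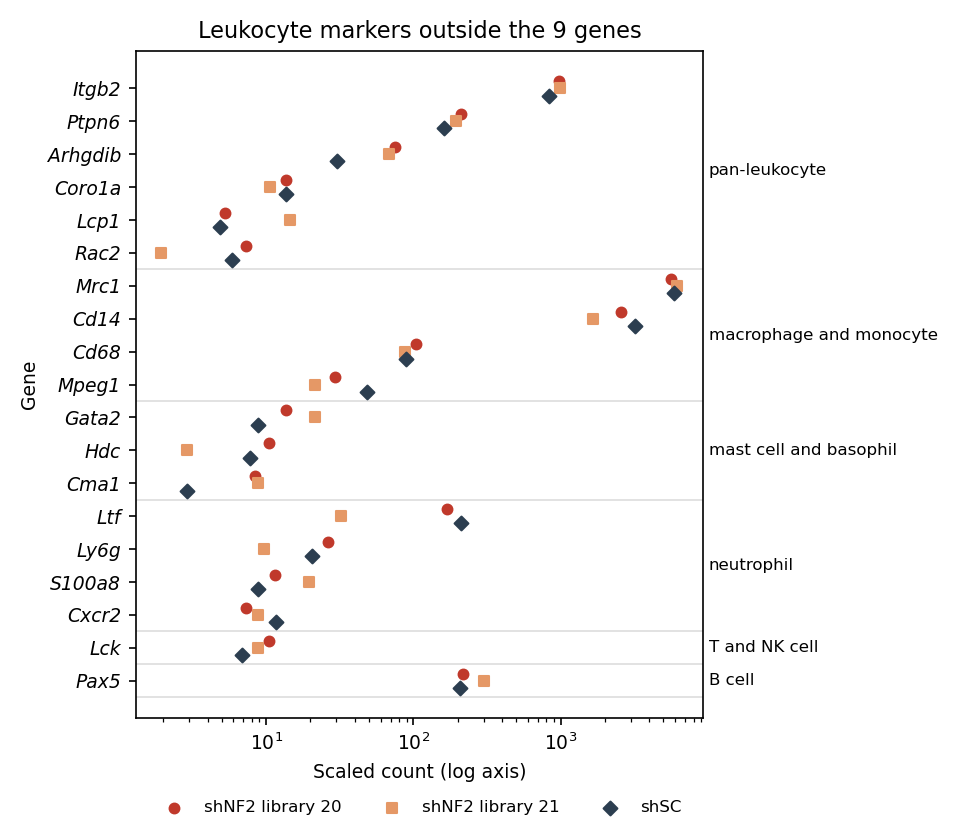
Scaled counts (log axis) of the 19 leukocyte markers with a row, outside the 9 genes, in shNF2 library 20, shNF2 library 21 and shSC, grouped by the cell type they mark. Mrc1, Cd14, Itgb2, Ptpn6, Pax5 and Ltf reach 100 in at least 1 library, Cd68 reaches 105 in shNF2 library 20, and the other markers stay under 100.

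The families of the 9 genes were searched for relatives. Of 115 relatives and ligands in 9 families, 41 had a row and 35 were tested. The Ccr1 ligand gene Ccl9 alone passed in limma and in edgeR, DESeq2 called 2, and 12 had an unadjusted p under 0.05 in limma. These are 2.86% passing and 34.3% with such an unadjusted p, against 0.843% and 9.27% of all genes tested. The 12 lay in both directions, with Ccl6 higher and Tspan18 lower in shNF2, for example. The lists were chosen with earlier results of these data known, so nothing is read from these shares. The median log2 fold change of the relatives tested was 0.09. Among 26 other tetraspanins 22 had a row and 0 of 20 tested passed. Cd9, a tetraspanin of epithelia and platelets, had 18934 and 16887 scaled counts in shNF2 libraries 20 and 21, against 33478 in shSC, a difference of -0.90 ± 0.22 on the log2 scale (± SE, adjusted p = 0.103 in limma). It passed as lower under DESeq2 (adjusted p = 0.0275) and in limma over the unfiltered table (adjusted p = 0.0314). Cd63 had a log2 fold change of -0.53, Cd151 -0.58, Tspan8 -0.59, Cd81 0.31 and Tspan31 -0.02. The log2 fold change of Cd53 was -2.33, and those of the tested tetraspanins ran from -1.08 for Tspan18 to 0.73 for Tspan5. Cd53 was proposed with its difference between groups known, and the others were listed as its relatives. Its place outside their range is therefore not read as a result, and the difference itself was not tested.

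Of 16 Ly6 relatives 4 had a row and 0 passed. Ly6e had 16839 and 15144 scaled counts in shNF2 libraries 20 and 21, against 14769 in shSC, a log2 fold change of 0.11 ± 0.22 (SE). Ly6c1, a marker of monocytes and endothelium, had 114 and 49.6 in shNF2, against 159 in shSC (-1.07 ± 0.46, SE; limma adjusted p = 0.482). Ly6f had 57.5 and 42.8, against 24.3, and Ly6g 26.2 and 9.72, against 20.4. Ly6 genes are alike in sequence, so reads could be divided between them and their values are uncertain to that extent. Of 15 Ceacam and Psg relatives only Psg17 and Ceacam16 had a row, both under 50 scaled counts in every library, and Ceacam2, the closest copy of Ceacam1, had none. Lyz1, the copy of Lyz2 known from Paneth cells, had no row.

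Of 23 other chemokine receptors 4 had a row and 0 of 2 tested passed. Ackr3, a scavenging receptor, had 1221 and 1273 scaled counts in shNF2 libraries 20 and 21, against 1868 in shSC (log2 fold change -0.58 ± 0.22, SE). Ccrl2 had 198 and 91.4 in shNF2, against 196 in shSC, and Cxcr2 and Ccr4 stayed under 12 in every library. Of 7 ligand genes of Ccr1, 4 had a row, and 1 of them passed. Ccl9 had 6061 and 6170 in shNF2, against 1441 in shSC, higher by 2.08 ± 0.21 on the log2 scale (± SE, adjusted p = 0.000993 in limma). Ccl5 (1.09 ± 0.40), Ccl6 (1.91 ± 0.58) and Ccl7 (0.69 ± 0.48) had positive log2 fold changes (± SE) and did not pass, and Ccl3, Ccl4 and Ccl8 had no row.

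The genes whose values over the 3 libraries were most like those of each member were found by the Euclidean distance between centred log2(scaled count + 1) values, among genes whose mean was 100 or more. With 3 libraries many genes can share a pattern, and no more than likeness is meant. Ceacam1 was nearest to Mmp13, a collagenase gene, at a distance of 0.03 (6389 and 10898 scaled counts of Mmp13 in shNF2 libraries 20 and 21, against 57023 in shSC), then to Gm35507 (0.25) and Cd53 (0.33). Cd53 was nearest to the lymphatic growth factor gene Vegfc (0.33), Ceacam1 (0.33) and Mmp13 (0.36). Ccr1 was nearest to Gm35507 (0.35), Ceacam1 (0.48) and Mmp13 (0.49). Lilr4b was nearest to the annexin gene Anxa10 (0.67), Ccr1 (0.72) and Gm35507 (0.86). Each of Cd53, Ceacam1, Ccr1 and Lilr4b had another of these 4 among its 3 nearest genes. All 4 were lower in both shNF2 libraries, with library 20 the lowest. They were proposed with their differences between groups known, so nothing is read from this nearness.

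The other members had other neighbours. Ly6a was nearest to the EGF receptor ligand gene Areg (0.06; 2711 and 2129 scaled counts of Areg in shNF2 libraries 20 and 21, against 7488 in shSC), Kcne3 (0.08) and Snap25 (0.11). Lyz2 was nearest to the monocyte chemokine gene Ccl2 (0.17; 1417 and 599 in shNF2 libraries 20 and 21, against 361 in shSC), the carboxylesterase gene Ces2e (0.27) and Rab30 (0.45). Mcpt8 was nearest to Slc4a11 (0.0043), Oxct1 (0.02) and Ppm1d (0.03), whose log2 fold changes were 0.75, 0.75 and 0.72. Mcpt1 and Mcpt2 had means under 100 scaled counts and were not searched.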

How the data were processed

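RNA of 3 AB12 libraries was measured by polyA-selected stranded TruSeq paired sequencing, per the labels' protocols. The authors deposited a gene table of scaled counts (a signal per gene). The build mm10 and the tools STAR 2.5.0a, HTSeq 0.5.3, cutadapt 1.6 and DESeq 1.22.1 come from the submitters' processing notes, without their roles; whether counting used strand was not stated there. Multiplying each library by its own factor gave whole reads (100% of values within 0.001 reads). The 4 rows without a gene held 48.7% and 47.7% of reads in shNF2 libraries 20 and 21, against 48.6% in shSC, and were left out. limma 3.58.1 (R 4.3.3, variance trend) was run on log2(scaled count + 1) for the 12813 genes whose mean was 10 or more, two-sided, with Benjamini-Hochberg adjustment over all of them and a threshold of 0.05. On this scale the change of a low gene is understated. The shNF2 pair alone gave the residual variance (1 degree of freedom, with 11.9 added by moderation), and shSC was taken to vary as much. An exact permutation of 2 libraries against 1 cannot go below 1 in 3. edgeR 4.0.16 and DESeq2 1.42.0 on the recovered reads, and other pseudocounts, filters, scalings and moderation, were alternatives. Ratios of reads have exact conditional binomial intervals (scipy 1.17.1), shares exact binomial ones. Named were all members, up to 6 genes of each list by mean level, and the 3 nearest genes of each member with a mean of at least 100; other genes were chosen after their values were seen. The members and lists were chosen with earlier results of these data known. No mouse sequence was used here, so identity between copies was not measured.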

Additional observations from a re-analysis of the deposited data

How the results depend on the processing

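Every one of the 9 genes kept its direction under all alternatives run, which included each shNF2 library alone. The number passing was 7 of 9, and 5 to 8 under other pseudocounts, filters, TMM scaling, robust moderation, edgeR and DESeq2. It was 0 under quantile normalization and 0 without a variance trend, where the adjusted p of Mcpt1 in limma, for example, was 0.496 and 0.0879. All 9 had an unadjusted p under 0.05 in both settings, beside 882 and 1036 of all 12813 genes tested. The 9 were proposed with this contrast known, so nothing is read from that count. Over all genes the number passing was 108, and 232 without the filter on low values, 0 with quantile normalization (882 had an unadjusted p under 0.05) and 0 with no variance trend (1036 did). Among the relatives 1 passed, and 2 without the filter, 2 with DESeq2, 0 with quantile normalization (8 had an unadjusted p under 0.05) and 0 with no variance trend (8 did). Lilr4b did not pass with TMM scaling (adjusted p = 0.0678), robust moderation (0.586) or DESeq2 (0.9999). Ccr1 did not pass with robust moderation (0.183). The cause was not tested for either gene. Lyz2 passed without the filter (0.0349), and its adjusted p ran up to 0.706 elsewhere. The median log2 fold change of the 9 genes was -2.64, and from -2.69 to -1.97 with 1 shNF2 library left out. With library 20 or library 21 left out, log2 fold changes were -2.12 or -4.33 for Lilr4b, -1.92 or -3.36 for Ccr1 and 0.92 or 2.19 for Lyz2; 1 library against 1 has no test. Summing copies, an alternative chosen after seeing the data, kept both calls (Lilr4b with Lilrb4a, adjusted p = 0.047; Mcpt1 with Mcpt2, 0.0016). No paired analysis was possible because the groups share no replicate number. Depth limits Mcpt1 and Mcpt2 most, with 10 to 32 reads in each shNF2 library.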
